A study of Mus musculus with 20 samples.

Results

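Expression of 9 genes that encode proteins of maternal mRNA storage and repression was followed, by gene symbol, through mouse oocyte maturation and the first cell cycles: Ybx2, Zar1, Zar1l, Lsm14a, Lsm14b, Ddx6, Eif4enif1, Eif4e1b and Pum2. They are 9 of the 23309 gene symbols in the expression files, and each has 1 locus there. The RNA-seq libraries came from 2 experiments on the ICR strain. In the Btg4 experiment, wild-type females and females labelled Btg4-/- gave oocytes at the germinal vesicle stage (GV, arrested in the first meiotic prophase) and at the second meiotic metaphase (MII), zygotes, and 2-cell embryos, with 2 libraries for each of these 8 groups. The Erk experiment has 1 library each of GV and of MII oocytes, labelled wild type or Erk-/-. Each sample pooled 60 oocytes or embryos. The labels give wild-type and Btg4-/- females an age of 21 to 23 days, injection of the gonadotropins PMSG and hCG, and mating where embryos were wanted, and do not name Erk-/- females there. Neither mutant allele is described, Erk-/- names no single gene and no Cre driver, and for zygotes and 2-cell embryos the labels give a genotype without saying whether it is that of the embryo or of the mother.

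A growing mouse oocyte accumulates mRNA that it does not translate at once, and transcription stops before the meiotic divisions. The stored mRNA is kept in ribonucleoprotein particles with shortened poly(A) tails until its tail is lengthened and it is translated, or until it is destroyed during maturation and after fertilization. YBX2 (also called MSY2) is the germ cell Y-box protein that coats and stabilizes these mRNAs, and the zinc finger proteins ZAR1 and ZAR1L bind their 3′ untranslated regions. LSM14A and LSM14B are scaffold proteins of repressive particles that bind DDX6, a DEAD-box RNA helicase that links repression to decapping. EIF4ENIF1 (4E-T) holds the cap-binding protein away from the initiation complex, EIF4E1B is the form of the cap-binding protein found in oocytes, and PUM2 binds the Pumilio element of 3′ untranslated regions. BTG4 is an adaptor that brings the CCR4-NOT deadenylase to maternal mRNA during maturation.

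Values are FPKM, fragments per unit of transcript length and of library depth. Their total over all genes differed between libraries, so a ratio of FPKM is not a ratio of shares of mRNA. At MII the totals were 477200 and 472100 under the label Btg4-/- and 357500 and 379900 in wild type. At 2-cell they were 453800 and 442000 against 300000 and 302000, and in the zygote 424700 and 408400 against 354200 and 343900. At GV the totals of the genotypes overlapped. The main fit did not rescale values to a common total. With a fixed number of pooled cells, a gene that changed and a change in the rest of the cell's mRNA cannot be told apart, nor can fewer cells and less RNA per cell. The depth estimated for the libraries of the Btg4 experiment ranged from 2730000 to 4890000 fragments, and for those of the Erk experiment from 5690000 to 8180000. All 14 oocyte markers were measured, and they summed to between 3278 and 13620 FPKM in libraries of the Btg4 experiment and between 15470 and 25010 FPKM in those of the Erk experiment. Markers of granulosa and cumulus cells summed to 69.6 to 85.5 FPKM in the GV libraries of the Btg4 experiment and to 5.07 to 19.7 FPKM at the later stages. The targeted gene only partly fitted the labels: Btg4 stood at 1980 and 1881 FPKM in the GV libraries labelled Btg4-/- and at 1450 and 1673 FPKM in wild type, and at 3514 and 3632 FPKM against 1147 and 964 at the 2-cell stage. At MII it was at 172 and 191 FPKM against 415 and 406, and in the zygote at 139 and 164 FPKM against 610 and 560. A deletion within a gene can leave its FPKM high, so groups are called here by their labels. From GV to MII wild-type Btg4 was lower in the Btg4 experiment and higher in the Erk experiment (216 and 2987 FPKM), and the stage labels, too, are taken as given.

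Signals near the 3′ end of an mRNA are known to take part in setting its tail length in the oocyte, and the 3′ sites of the 9 genes are shown because their products bind stored mRNA. Searched were 2 signals on the transcript strand in the last 100 bases of 1 GENCODE M21 transcript per gene (GRCm38): the cytoplasmic polyadenylation element, TTTTAT or TTTTAAT, bound by CPEB proteins, and the polyadenylation hexamer, AATAAA or ATTAAA. Capitals mark these letters in the 30-base sites below, all of which lie in the 3′ untranslated region and in 1 exon.
Ybx2: cctctgaagccaTTTTATgaactgtcatgt
Lsm14a: tgtTTTTAATAAAggccatggAATAAAgag
Zar1: ataaagcctgtgAATAAAaggtattgcaaa
Lsm14b: aaatgcaaactaAATAAAcattggactctt
Ddx6: ttaatttatctcAATAAAagcccactggaa
Eif4enif1: ttcttttggtttATTAAAagttacatatgc
Eif4e1b: ggccctttctgtatctaAATAAAcacttct
Pum2: aacattgtatgaAATAAAcctggtcttgtg
The Ybx2 site is at chr11:69941532-69941561 on the plus strand and the Lsm14a site at chr7:34344661-34344690 on the minus strand. A cytoplasmic polyadenylation element was found in Ybx2, 62 bases from the end, and in Lsm14a, where TTTTAAT overlaps a hexamer. Among 19339 genes whose 3′ untranslated region spans the window, 17.9% hold this element and 78.6% a hexamer. No hexamer was found in the last 100 bases of Ybx2, whose chosen transcript is 1673 bases long, and the annotated 3′ untranslated region of Zar1l, 14 bases, was too short to search. The Pumilio element TGTANATA was in the last 100 bases of none of the 9 genes and of 4.3% of the 19339 genes. Over the whole annotated 3′ untranslated region it was found 2 times in Ddx6, 2 times in Eif4enif1, 2 times in Pum2, and 1 time each in Lsm14a and Lsm14b. These regions differ in length, with 4250 bases in Ddx6 and 496 in Eif4enif1. The share of all genes with the element over the whole region was not counted, so no excess can be read from these numbers. A match of letters is a description of the sequence and was not tested as a binding site.

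In wild type the 9 genes changed order from stage to stage. At GV, Zar1l was the most abundant of the 9 with a mean of 357 FPKM, followed by Zar1 (338), Lsm14b (235), Eif4e1b (148.5), Ybx2 (101), Lsm14a (54.0), Eif4enif1 (22.6), Pum2 (13.4) and Ddx6 (0.888). At MII, Zar1 stood first at 2467 FPKM and Zar1l seventh at 30.8 FPKM, and the libraries of Lsm14a and Eif4enif1 overlapped. In the zygote Zar1 was first at 1472 FPKM and Eif4e1b second at 775 FPKM, and Lsm14a and Zar1l overlapped. At the 2-cell stage Ybx2 (482 FPKM) and Eif4e1b (406.5 FPKM) led with overlapping libraries, and Zar1 (22.6 FPKM) stood seventh. Ddx6 had the lowest mean at each of the 4 stages, and at 2-cell its libraries overlapped those of Zar1l.

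**Figure D1:**
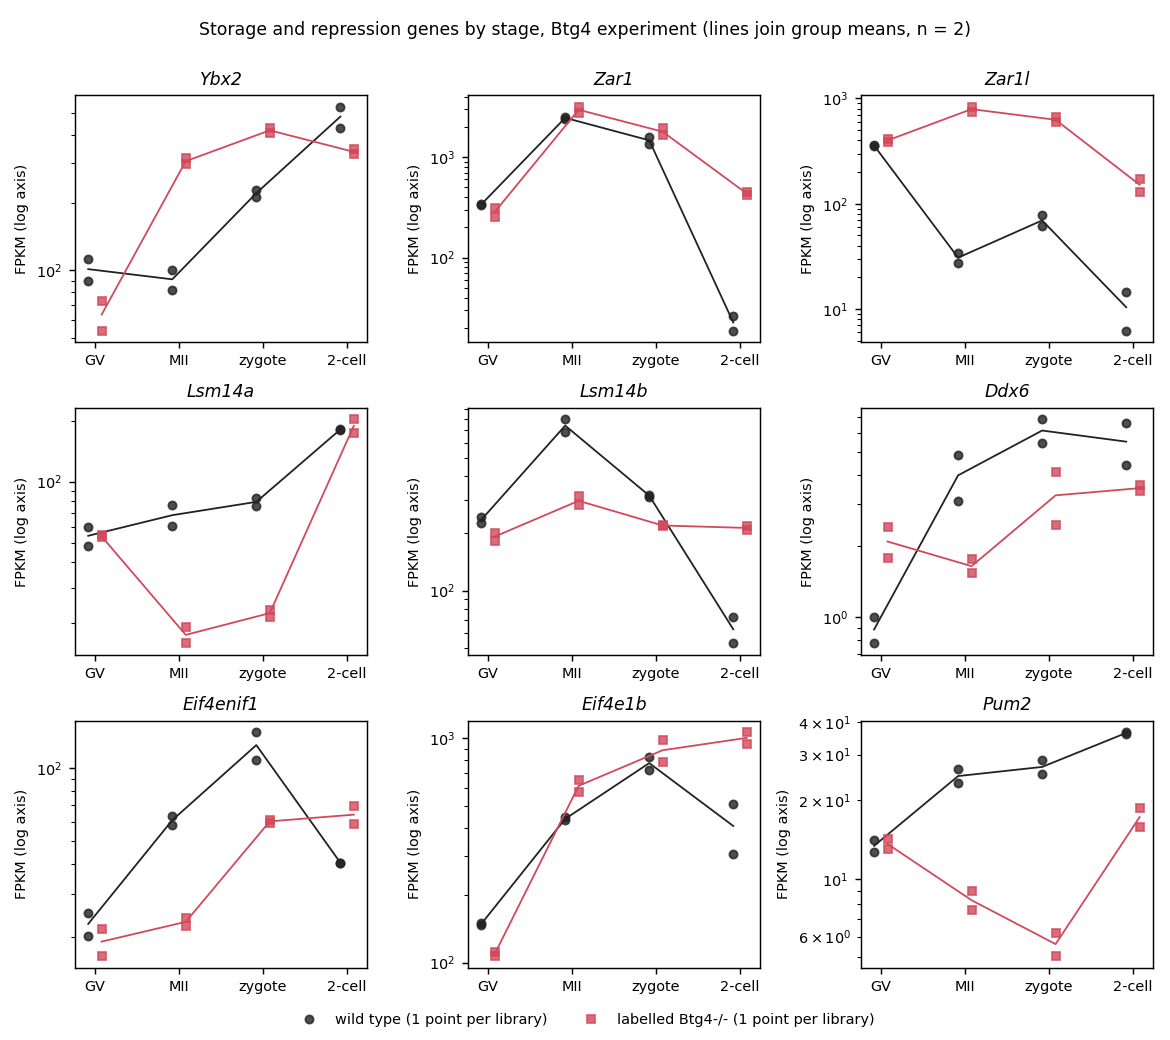
FPKM on a log axis for each of the 9 genes at GV, MII, zygote and 2-cell; each point is 1 library, lines join the means of 2 libraries, black for wild type and red for the label Btg4-/-. In wild type Zar1 drops from 1599 and 1345 FPKM in the zygote to 26.5 and 18.7 FPKM at 2-cell, and Zar1l from 353 and 362 FPKM at GV to 33.9 and 27.6 FPKM at MII.

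Changes were tested with limma on log2(FPKM + 1) over all 16 libraries of the Btg4 experiment, and a gene passed at an adjusted p below 0.05 (Benjamini-Hochberg over 12311 genes). Nothing in the labels ties the replicates to different animals, so a p-value here reflects the spread of these particular samples, and that spread may be technical. During wild-type maturation from GV to MII, 6 of the 9 genes rose and 1 fell, where of all genes tested 25.2% rose and 28.5% fell (53.7% in either direction). From MII to zygote 4 rose and 2 fell (of all genes 20.5% and 8%, together 28.5%). From zygote to 2-cell 3 rose and 5 fell (of all genes 27.1% and 30.2%, together 57.4%). The median change of the 9 genes was 1.38, 0.54 and -0.97 on the log2 scale in these 3 steps, and that of all genes tested was -0.02, 0.22 and -0.06. Fitted on the 4 wild-type libraries of MII and zygote alone, 2 of the 9 genes passed in that step in place of 6, and the adjusted p was 0.11 for Zar1, 0.0591 for Zar1l, 0.0587 for Eif4enif1 and 0.0511 for Eif4e1b. Fitted alone, the wild-type step from zygote to 2-cell also lost Eif4e1b (adjusted p = 0.075) and Pum2 (0.0547), and the labelled step from MII to zygote lost Zar1 (0.0861).

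Between genotypes 1 of the 9 genes passed at GV and 7 or 8 at each later stage. At GV, 0 of the 9 were higher and 1 was lower in the libraries labelled Btg4-/- (1.45% of all genes were higher and 6.46% lower, together 7.9%). At MII 3 were higher and 5 lower (29.1% and 23.3% of all genes, together 52.4%). In the zygote 2 were higher and 5 lower (24.4% and 23.3%, together 47.7%), and at the 2-cell stage 5 were higher and 2 lower (22.6% and 26.4%, together 49%). The share of the 9 that passed has to be read against these shares of all genes. Where groups are said below not to overlap, this describes 2 libraries against 2 and is no test. The share of all genes without overlap was not counted. The median change of the 9 was -0.24 at GV, -0.89 at MII, -0.52 in the zygote and 0.64 at 2-cell, and that of all genes tested -0.12, 0.09, 0.01 and -0.05. Median-of-ratios scaling moved the median of all genes at GV from -0.12 to 0 and left 0 of the 9 genes past the threshold there. With quantile normalization the 2-cell split was 3 higher and 3 lower. Fitted on the 4 libraries compared alone, which leaves less information on the spread, 5 of the genotype calls ended: Ybx2 at GV (adjusted p = 0.201) and 2-cell (0.0782), Ddx6 at MII (0.0887) and in the zygote (0.128), and Eif4e1b at 2-cell (0.05003).

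**Figure D2:**
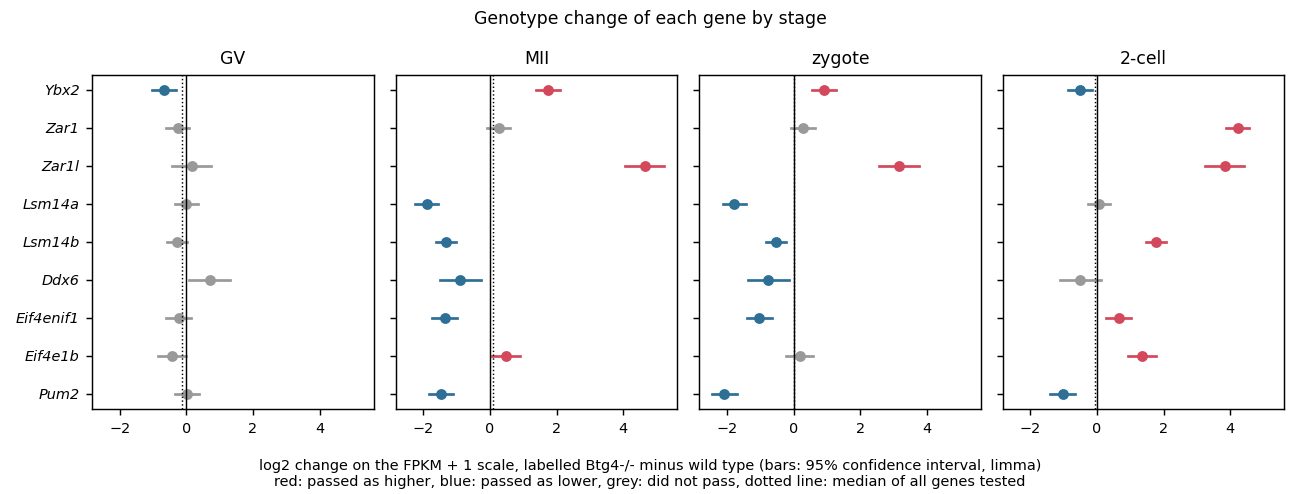
Log2 change of each of the 9 genes on the FPKM + 1 scale, the label Btg4-/- minus wild type, at the 4 stages, with 2 libraries per group. Bars are 95% confidence intervals from limma. Their spread is estimated over all 16 libraries, so a gene has bars of the same width at each stage. Red passed as higher, blue passed as lower, grey did not pass, and the dotted line is the median of all genes tested. Zar1l is at 4.65 at MII, Zar1 at 0.26 at MII and 4.23 at 2-cell, and Lsm14a at -1.90 at MII and 0.06 at 2-cell.

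Ybx2 (chromosome 11, 69749401 to 69755101, mm9) encodes the coat protein of stored mRNA, and its level rose earlier in the libraries labelled Btg4-/-. In wild type it was at 112 and 89.9 FPKM at GV, 82.0 and 100.2 FPKM at MII, 228 and 212 FPKM in the zygote, and 534.5 and 430 FPKM at 2-cell. Under the label Btg4-/- the libraries held 73.2 and 53.9 FPKM at GV, 314.5 and 296 FPKM at MII, 430.5 and 407 FPKM in the zygote, and 344.5 and 328 FPKM at 2-cell. The groups did not overlap at any stage, with the labelled libraries low at GV, high at MII and in the zygote, and low again at 2-cell. At MII the mean FPKM was 3.35 times that of wild type (log2 change 1.74 ± 0.17 SE, adjusted p = 1.79e-06) and in the zygote 1.90 times (0.92 ± 0.17, adjusted p = 0.000493), or 0.57 in the zygote under quantile normalization and 0.56 with a correction for length. The lower values at GV (-0.67, adjusted p = 0.0283) and 2-cell (-0.51, adjusted p = 0.0212) depended on single libraries. At GV the adjusted p rose to 0.24 without labelled Btg4-/- replicate 2, 0.222 without wild-type replicate 1, 0.052 without wild-type replicate 2, and 0.133 under median-of-ratios scaling (log2 change -0.43). At 2-cell it rose to 0.0578 without labelled Btg4-/- replicate 1, 0.0944 without replicate 2, and 0.17 without wild-type replicate 1, and quantile normalization moved the change to -1.45. Wild-type Ybx2 rose by 1.27 from MII to zygote (adjusted p = 0.000174) and by 1.12 from zygote to 2-cell (adjusted p = 7.63e-05), while in the labelled libraries the step that passed was GV to MII (2.26, adjusted p = 1.87e-07).

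Zar1 (chromosome 5, 72968353 to 72972323) encodes the zinc finger protein that organizes stored mRNA in the oocyte, and its mRNA fell less by the 2-cell stage in the libraries labelled Btg4-/-. Wild-type Zar1 was at 344 and 331 FPKM at GV, 2414 and 2520 FPKM at MII, 1599 and 1345 FPKM in the zygote, and 26.5 and 18.7 FPKM at 2-cell. The libraries labelled Btg4-/- held 314 and 254 FPKM at GV, 3196 and 2742 FPKM at MII, 1937 and 1652 FPKM in the zygote, and 450.1 and 419 FPKM at 2-cell. At 2-cell both labelled libraries stood far above both wild-type libraries, and at the 3 earlier stages the groups lay close to each other without overlap. The 2-cell mean was 19.2 times that of wild type (log2 change 4.23 ± 0.16 SE, adjusted p = 1.32e-09). The earlier differences did not pass, with log2 changes of -0.26 at GV (adjusted p = 0.405), 0.26 at MII (adjusted p = 0.191) and 0.29 in the zygote (adjusted p = 0.166), the last of which turned to -0.17 with quantile normalization. Wild-type Zar1 rose by 2.87 on the log2 scale from GV to MII (adjusted p = 1.44e-08), a 7.30-fold higher mean FPKM, and fell by 5.98 from zygote to 2-cell (adjusted p = 5.51e-11). In the labelled libraries it rose by 3.39 from GV to MII (adjusted p = 3.95e-09) and fell by 2.04 from zygote to 2-cell (adjusted p = 5.31e-07). The fall in the last step differed between genotypes by 3.94 (adjusted p = 6.71e-08), and the rise from GV to MII did not pass as different (adjusted p = 0.0839). From MII to zygote Zar1 fell by 0.75 in wild type (adjusted p = 0.00429) and by 0.73 in the labelled libraries (adjusted p = 0.00949). The wild-type call ended with quantile normalization (adjusted p = 0.535), and the labelled call ended without labelled Btg4-/- MII replicate 1 (adjusted p = 0.0874) or zygote replicate 2 (adjusted p = 0.0969).

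Zar1l (chromosome 5, 151309644 to 151320734), the related gene also called Zar2, fell in wild-type maturation and rose in the libraries labelled Btg4-/-. Wild type held 353 and 362 FPKM at GV, 33.9 and 27.6 FPKM at MII, 77.9 and 61.0 FPKM in the zygote, and 6.24 and 14.6 FPKM at 2-cell. Under the label Btg4-/- the libraries held 414 and 385 FPKM at GV, 838.5 and 746 FPKM at MII, 661 and 594 FPKM in the zygote, and 130.5 and 172 FPKM at 2-cell. From MII on every labelled library was above every wild-type library by a wide margin. The ratio of mean FPKM, labelled over wild type, was 25.7 at MII (log2 change 4.65 ± 0.27 SE, adjusted p = 2.7e-08), 9.03 in the zygote (3.17 ± 0.27, adjusted p = 1.11e-06) and 14.6 at 2-cell (3.83 ± 0.27, adjusted p = 1.89e-07). The 2-cell ratio was 24.3 without wild-type replicate 2 and 10.4 without wild-type replicate 1, whose values rest on an estimated 26.5 and 19.4 fragments. At GV the change was 0.16 (adjusted p = 0.85), and it was -0.01 with the length correction. Wild-type Zar1l fell by 3.50 from GV to MII (adjusted p = 2.76e-07), rose by 1.15 from MII to zygote (adjusted p = 0.00775) and fell by 2.72 from zygote to 2-cell (adjusted p = 2.56e-06). The middle step did not pass without wild-type MII replicate 2 (adjusted p = 0.0637) or zygote replicate 1 (adjusted p = 0.064). The labelled libraries rose by 0.98 from GV to MII (adjusted p = 0.0098). That call ended under median-of-ratios scaling (0.57, adjusted p = 0.107) and without labelled Btg4-/- GV replicate 2 (adjusted p = 0.0599) or MII replicate 1 (adjusted p = 0.0649). From zygote to 2-cell they fell by 2.06 (adjusted p = 5.08e-05). The GV to MII step differed between genotypes by 4.49 (adjusted p = 1.8e-06), the largest difference of a step among the 9 genes.

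The 2 Zar genes thus stood in very different proportions in MII oocytes. In wild type the ratio of Zar1 to Zar1l FPKM was 0.975 and 0.916 at GV, 71.1 and 91.3 at MII, 20.5 and 22.1 in the zygote, and 4.24 and 1.28 at 2-cell. In the libraries labelled Btg4-/- it was 0.757 and 0.66 at GV, 3.81 and 3.68 at MII, 2.93 and 2.78 in the zygote, and 3.45 and 2.43 at 2-cell. The ratio was more than 10 in the wild-type libraries of MII and zygote, and under 4 in each labelled library.

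Lsm14a (chromosome 7, 35129739 to 35174559) encodes a scaffold of repressive particles and P-bodies, and it was low in MII oocytes and zygotes labelled Btg4-/-. Wild type held 48.0 and 60.0 FPKM at GV, 60.0 and 76.5 FPKM at MII, 83.2 and 75.6 FPKM in the zygote, and 179 and 182 FPKM at 2-cell. The libraries labelled Btg4-/- held 54.2 and 53.0 FPKM at GV, 15.9 and 19.2 FPKM at MII, 21.6 and 23.3 FPKM in the zygote, and 174 and 203 FPKM at 2-cell. The groups overlapped at GV and at 2-cell, and at MII and in the zygote both labelled libraries were below both wild-type libraries. Mean FPKM in wild type was 3.90 times that of the labelled libraries at MII (log2 change -1.90 ± 0.16 SE, adjusted p = 5.44e-07) and 3.54 times in the zygote (-1.78 ± 0.16, adjusted p = 1.41e-06). At GV the change was -0.0028 (adjusted p = 1), with a sign that depended on the scaling, and at 2-cell it was 0.06 (adjusted p = 0.809). With quantile normalization the 2-cell change was -0.72 and passed (adjusted p = 0.00115). In wild type the single step that passed was the rise of 1.18 from zygote to 2-cell (adjusted p = 3.26e-05). In the labelled libraries Lsm14a fell by 1.56 from GV to MII (adjusted p = 3.48e-06) and rose by 3.01 from zygote to 2-cell (adjusted p = 1.58e-08), an 8.41-fold higher mean. Both steps differed between genotypes, by -1.90 (adjusted p = 2.25e-05) and by 1.83 (adjusted p = 2.52e-05).

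Lsm14b (chromosome 2, 179759692 to 179770166) encodes the related scaffold that is enriched in oocytes. Its wild-type course, a peak at MII and a fall by 2-cell, was flatter in the libraries labelled Btg4-/-. Wild type held 226 and 245 FPKM at GV, 682 and 796.5 FPKM at MII, 313 and 319 FPKM in the zygote, and 72.3 and 52.6 FPKM at 2-cell. Under the label Btg4-/- the libraries held 201 and 183 FPKM at GV, 280.5 and 313 FPKM at MII, 221 and 219 FPKM in the zygote, and 219 and 208 FPKM at 2-cell. The groups did not overlap at any stage, and the labelled libraries passed from the low side at MII and in the zygote to the high side at 2-cell. At MII the change was -1.31 ± 0.14 SE (adjusted p = 5.13e-06), in the zygote -0.52 ± 0.14 (adjusted p = 0.00798, and -0.98 with quantile normalization) and at 2-cell 1.77 ± 0.14 (adjusted p = 4.74e-07). The GV change of -0.29 did not pass (adjusted p = 0.254). Wild-type Lsm14b rose by 1.64 from GV to MII (adjusted p = 6.16e-07), then fell by 1.22 to the zygote (adjusted p = 6.76e-05) and by 2.34 to 2-cell (adjusted p = 2.64e-08). In the labelled libraries the rise from GV to MII was 0.62 (adjusted p = 0.00255), or 0.21 and not past the threshold under median-of-ratios scaling (adjusted p = 0.228), and the 2 later steps did not pass (adjusted p = 0.0572 and 0.851). The zygote to 2-cell step differed between genotypes by 2.30 (adjusted p = 1.58e-06).

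As with the Zar pair, the proportion of the 2 scaffold genes shifted. The ratio of Lsm14b to Lsm14a FPKM in wild type was 4.71 and 4.08 at GV, 11.4 and 10.4 at MII, 3.76 and 4.22 in the zygote, and 0.404 and 0.288 at 2-cell. In the libraries labelled Btg4-/- it was 3.71 and 3.46 at GV, 17.7 and 16.4 at MII, 10.2 and 9.41 in the zygote, and 1.26 and 1.03 at 2-cell. From MII on the labelled libraries had the higher ratio, without overlap with wild type.

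Ddx6 (chromosome 9, 44412975 to 44448814), the helicase that LSM14 proteins and EIF4ENIF1 bind, had the lowest mean of the 9 in each of the 8 groups, and its genotype calls rested on single libraries and settings. Wild type held 1.001 and 0.775 FPKM at GV, 3.09 and 4.87 FPKM at MII, 5.45 and 6.85 FPKM in the zygote, and 6.64 and 4.40 FPKM at 2-cell. The libraries labelled Btg4-/- held 1.77 and 2.41 FPKM at GV, 1.53 and 1.75 FPKM at MII, 2.45 and 4.10 FPKM in the zygote, and 3.62 and 3.41 FPKM at 2-cell. The labelled libraries were above wild type at GV and below it at the other 3 stages, without overlap. The wild-type GV values rest on an estimated 26.7 and 15.99 fragments, and the other values on more. The rise in wild type from GV to MII passed (1.38 ± 0.28 SE, adjusted p = 0.00115), with 0.60 at a pseudocount of 5 and 0.90 with the length correction. The lower levels at MII (-0.89, adjusted p = 0.0183) and in the zygote (-0.76, adjusted p = 0.0419) ended with the length correction, at -0.28 (adjusted p = 0.413) and -0.26 (adjusted p = 0.46). The MII call also ended without labelled Btg4-/- replicate 1 (adjusted p = 0.0838) or 2 (0.0513) and without wild-type replicate 2 (0.15). The zygote call ended without labelled zygote replicate 1 (-0.48, adjusted p = 0.291), wild-type zygote replicate 1 (0.0648) or replicate 2 (0.205), and without either wild-type GV library or either labelled MII library (adjusted p 0.0528 to 0.0533). With a pseudocount of 0.1, with no filter and with quantile normalization the zygote adjusted p was 0.0741, 0.0601 and 0.0758. The changes at GV (0.71, adjusted p = 0.166) and 2-cell (-0.51, adjusted p = 0.158) did not pass.

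Eif4enif1 (chromosome 11, 3102356 to 3144591), which encodes the cap-side repressor 4E-T, peaked in wild-type zygotes and rose later and less in the libraries labelled Btg4-/-. Wild type held 25.0 and 20.2 FPKM at GV, 58.3 and 63.4 FPKM at MII, 108 and 141 FPKM in the zygote, and 40.6 FPKM in both 2-cell libraries. Under the label Btg4-/- the libraries held 21.6 and 16.6 FPKM at GV, 22.3 and 23.9 FPKM at MII, 59.2 and 61.1 FPKM in the zygote, and 58.6 and 69.7 FPKM at 2-cell. The groups overlapped at GV, the labelled libraries were the lower at MII and in the zygote, and they were the higher at 2-cell. The change was -1.36 ± 0.17 SE at MII (adjusted p = 2.24e-05), -1.02 ± 0.17 in the zygote (adjusted p = 0.000303) and 0.64 ± 0.17 at 2-cell (adjusted p = 0.00756). The 2-cell call ended without labelled Btg4-/- replicate 2 (adjusted p = 0.0629) and with quantile normalization (0.39, adjusted p = 0.0757). Wild-type Eif4enif1 rose by 1.40 from GV to MII (adjusted p = 1.74e-05) and by 1.01 from MII to zygote (adjusted p = 0.00106), and fell by 1.58 from zygote to 2-cell (adjusted p = 5.35e-06). In the labelled libraries the single step that passed was MII to zygote, a rise of 1.35 (adjusted p = 0.000414). The step from zygote to 2-cell did not pass there (adjusted p = 0.736), and the difference between genotypes in this step was 1.67 (adjusted p = 0.000113).

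Eif4e1b (chromosome 13, 54885364 to 54889819), the cap-binding form of oocytes, was lowest at GV in both genotypes and rose to MII. In the libraries labelled Btg4-/- it stayed high at 2-cell. Wild type held 149.5 and 147 FPKM at GV, 430.5 and 444 FPKM at MII, 828.5 and 722 FPKM in the zygote, and 508 and 305 FPKM at 2-cell. The libraries labelled Btg4-/- held 111 and 107 FPKM at GV, 651 and 577 FPKM at MII, 988 and 782 FPKM in the zygote, and 1064 and 945 FPKM at 2-cell. The groups overlapped in the zygote, and at 2-cell both labelled libraries lay above both wild-type libraries. The 2-cell change was 1.35 ± 0.19 SE (adjusted p = 7.84e-05), and it was 0.29 and did not pass with quantile normalization (adjusted p = 0.213). The MII change of 0.49 (adjusted p = 0.0482) lay at the threshold, turned to -0.10 under quantile normalization (adjusted p = 0.707), was 0.19 with the length correction (adjusted p = 0.42), and did not pass without any 1 of the 4 MII libraries (adjusted p 0.0785 to 0.213). It also ended without any 1 of the 4 GV libraries, the 2 wild-type zygote libraries or the 2 labelled 2-cell libraries (adjusted p 0.0554 to 0.0657), with a pseudocount of 0.1 (0.0555), with no filter (0.0929) and under median-of-ratios scaling (0.139). At GV (-0.44, adjusted p = 0.199) and in the zygote (0.18, adjusted p = 0.474) the changes did not pass, and the zygote change was -0.14 under quantile normalization and -0.06 after the length correction. Eif4e1b rose from GV to MII by 1.55 in wild type (adjusted p = 1.71e-05) and by 2.48 in the labelled libraries (adjusted p = 3.06e-07). In wild type it rose by 0.82 to the zygote (adjusted p = 0.00689, or 0.54 and 0.0682 with median-of-ratios scaling), a call that ended without wild-type zygote replicate 1 (adjusted p = 0.0533). It then fell by 0.97 to 2-cell (adjusted p = 0.000763), or by 0.61 without wild-type 2-cell replicate 2 and by 0.49 with quantile normalization. In the labelled libraries the latter 2 steps did not pass (adjusted p = 0.0889 and 0.454).

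Pum2 (chromosome 12, 8680940 to 8759389) encodes a sequence-specific repressor and was lower in the libraries labelled Btg4-/- from MII on. Wild type held 14.1 and 12.6 FPKM at GV, 23.3 and 26.3 FPKM at MII, 25.2 and 28.6 FPKM in the zygote, and 36.1 and 36.5 FPKM at 2-cell. Under the label Btg4-/- the libraries held 13.0 and 14.2 FPKM at GV, 7.56 and 8.99 FPKM at MII, 6.19 and 5.04 FPKM in the zygote, and 15.8 and 18.7 FPKM at 2-cell. The groups overlapped at GV, and both labelled libraries were below both wild-type libraries at the 3 later stages. Mean FPKM in wild type was 2.997 times that of the labelled libraries at MII (log2 change -1.48 ± 0.17 SE, adjusted p = 9.84e-06), 4.79 times in the zygote (-2.08 ± 0.17, adjusted p = 6.82e-07) and 2.10 times at 2-cell (-1.04 ± 0.17, adjusted p = 0.00025). At GV the change was 0.02 (adjusted p = 0.993). The MII change was -0.84 with the length correction and still passed (adjusted p = 0.000881). From GV to MII, Pum2 rose by 0.84 in wild type (adjusted p = 0.000988) and fell by 0.66 in the labelled libraries (adjusted p = 0.00628), a difference of -1.501 (adjusted p = 0.00027). The wild-type rise did not pass with the length correction (0.34, adjusted p = 0.103), and the labelled fall did not pass without labelled MII replicate 1 (adjusted p = 0.054) and was -1.04 with median-of-ratios scaling. From zygote to 2-cell it rose by 1.47 in the labelled libraries (adjusted p = 1.56e-05). The wild-type rise of 0.42 in that step (adjusted p = 0.0487) lay at the threshold. It did not pass with a pseudocount of 0.1 (adjusted p = 0.0583). Nor did it pass without any 1 of the 4 wild-type libraries of these stages (adjusted p 0.0677 to 0.219) or of the 4 GV libraries (0.0539 to 0.0565).

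Compared step by step, the genotypes differed for more of the 9 genes in the first and the last step than in the middle one. The same held for all genes tested. In the libraries labelled Btg4-/-, 5 genes rose and 2 fell from GV to MII (27.3% and 18.1% of all genes, together 45.4%). From MII to zygote 1 rose and 1 fell (10.3% and 5.38%, together 15.7%), and from zygote to 2-cell 2 rose and 2 fell (18.3% and 28.2%, together 46.5%). The difference of the step between genotypes, labelled minus wild type, passed for 3 higher and 5 lower genes from GV to MII (26.5% and 16% of all genes, together 42.5%), the exception being Zar1. From MII to zygote it passed for 1 higher and 2 lower genes (4.95% and 7.25%, together 12.2%). From zygote to 2-cell it passed for 6 higher and 1 lower genes (22.2% and 25.9%, together 48%), with Zar1l and Ddx6 not past the threshold. The 3 calls of the middle step rested on single libraries. None of the 9 genes passed there without labelled MII replicate 1, either labelled zygote library or wild-type zygote replicate 1, and 1 passed without labelled MII replicate 2, wild-type MII replicate 2 or wild-type zygote replicate 2. The Eif4e1b difference in the first step (0.93, adjusted p = 0.0143) ended under median-of-ratios scaling (0.57, adjusted p = 0.125), quantile normalization (0.29, adjusted p = 0.395) and the length correction (0.66, adjusted p = 0.0594), and without labelled MII replicate 1 (0.84, adjusted p = 0.0562).

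Other values moved with the genotype at the same stages. Oocyte markers were higher at 2-cell in the libraries labelled Btg4-/- for 14 of 14 genes, with a median change of 1.43 (22.6% of all genes were higher). At MII 10 of 14 were higher and 3 lower (median 1.25), in the zygote 9 were higher and 1 lower (median 1.11), and at GV 1 was higher and 6 lower (median -0.51), where 29.1%, 24.4% and 1.45% of all genes were higher. Markers of 2-cell embryos were lower at 2-cell for 9 of 9 (26.4% of all genes were lower). Their summed level was 17.5 to 22.7 FPKM in the labelled libraries and 208 to 312 FPKM in wild type, where none of the 9 markers was at 0. Genes entered the test with a mean of at least 1 FPKM in any 1 group, and 3 of these markers were below 1 FPKM in each labelled 2-cell library. Some may have entered only through wild-type 2-cell embryos, where they are high, so this count is a description and no test. Blood markers summed to 50.3 to 84.96 FPKM in the wild-type MII libraries and to 0 to 1.53 FPKM in the labelled ones. The part of these differences in the changes of the 9 genes was not tested.

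The change also moved with transcript length. Across 12202 genes with a length, Spearman rho between the longest annotated transcript and the change was -0.34 at MII, -0.32 in the zygote, -0.16 at 2-cell and -0.06 at GV, a description across genes that share the same libraries. At MII the median change was 0.68 for 887 genes of up to 1000 bases and -0.30 for 4048 genes of over 4000 bases. Among the 9 genes, Zar1l with 895 bases and Ybx2 with 1673 bases were the shortest by this measure and the highest at MII. Ddx6 with 6065 and Pum2 with 6311 bases were the longest, with changes of -0.89 and -1.48. Eif4enif1 with 3712 bases (-1.36) and Lsm14b with 2566 bases (-1.31) were shorter than Ddx6 and lower. The order depends on the transcript taken: Zar1, with a change of 0.26, has 2494 bases in its longest transcript and 1429 in the one used for the 3′ sites. Lsm14a, with 2944 bases, had the lowest change. With the length correction 2 of the 9 genes were higher and 4 lower at MII, beside 3789 higher and 2623 lower of all 12311 genes. In the zygote 2 were higher and 4 lower, beside 3071 and 2661 of all genes. Whether length has a part in the change of any single gene was not tested beyond this correction.

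**Figure D3:**
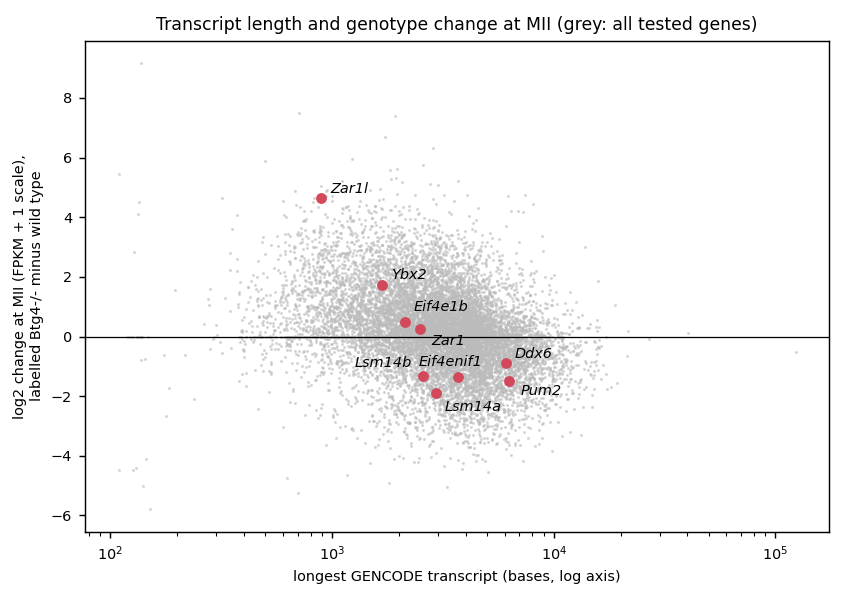
Log2 change at MII on the FPKM + 1 scale, the label Btg4-/- minus wild type (vertical), against the length of the longest GENCODE transcript in bases on a log axis (horizontal); grey points are all tested genes with a length and red points the 9 genes. Zar1l at 895 bases sits at 4.65, and Lsm14a at 2944 bases at -1.90.

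Of 6 paralogs of the 9 genes, 3 were higher and 2 lower at MII in the libraries labelled Btg4-/- (29.1% and 23.3% of all genes), and 3 higher and 2 lower in the zygote (24.4% and 23.3%). Csda (now named Ybx3), the Y-box relative of Ybx2, was at 153 and 172 FPKM against 48.1 and 58.0 FPKM in wild type at MII (log2 change 1.60, adjusted p = 2.92e-05) and at 419 and 460 FPKM against 119 and 165 FPKM in the zygote (1.64, adjusted p = 3.25e-05). Ybx1, the third Y-box gene, was at 72.8 and 79.1 FPKM against 81.8 and 140.2 FPKM at MII and did not pass (adjusted p = 0.0886, log2 change -0.49). It passed as lower under median-of-ratios scaling (-0.60, adjusted p = 0.0298), quantile normalization (-0.87, adjusted p = 0.00684) and the length correction (-0.97, adjusted p = 0.00395), and without wild-type MII replicate 1 (-0.88, adjusted p = 0.0053). Among relatives of Eif4e1b at MII, the general cap-binding gene Eif4e was at 114 and 117 FPKM against 43.8 and 47.5 FPKM (1.32, adjusted p = 6.2e-07). The translational repressor Eif4e2 (4EHP) was at 14.9 and 16.6 FPKM against 1.90 and 2.76 FPKM (2.34, adjusted p = 5.97e-06). Eif4e3 was lower, at 117.0 and 117.2 FPKM against 166 and 201 FPKM (-0.64, adjusted p = 0.000277).

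Among 36 partners of translational repression and P-bodies, 33 entered the test. In the libraries labelled Btg4-/- 0 were higher and 8 lower at GV (1.45% and 6.46% of all genes) and 4 higher and 18 lower at MII (29.1% and 23.3%). In the zygote 4 were higher and 18 lower (24.4% and 23.3%), and at 2-cell 7 higher and 9 lower (22.6% and 26.4%), the last near the share of all genes. At GV 4 were lower with median-of-ratios scaling and 3 with quantile normalization. Their median change at MII was -0.89, beside 0.09 for all genes, and -0.50 with the length correction. Elavl2, an RNA-binding protein of the ELAV family, had the lowest change of the list, with 24.4 and 22.7 FPKM against 301 and 336 FPKM in wild type at MII (-3.70, adjusted p = 4.19e-09). Lsm1, a subunit of the decapping activator ring, was at 1.10 and 0.843 FPKM against 10.5 and 16.2 FPKM (-2.84, adjusted p = 1.27e-06). The higher genes were led by Fxr2, of the fragile X family, at 122 and 105 FPKM against 18.2 and 13.6 FPKM (2.77, adjusted p = 2.16e-08), and by Nanos1, a partner of Pumilio proteins, at 43.8 and 40.3 FPKM against 13.6 and 11.3 FPKM (1.68, adjusted p = 1.38e-06).

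Of 10 cap-binding and 4E-binding factors, 9 were tested. At GV 0 were higher and 1 lower (1.45% and 6.46% of all genes). At MII 1 was higher and 6 lower (29.1% and 23.3% of all genes), with a median change of -1.71. In the zygote 1 was higher and 5 lower (24.4% and 23.3% of all genes). At 2-cell 2 were higher and 5 lower (22.6% and 26.4% of all genes), with a median change of -0.59. The helicase gene Eif4a2 was at 11.7 and 10.03 FPKM against 107 and 121 FPKM at MII (-3.28, adjusted p = 2.64e-09), and Eif4a1 at 286.2 and 285.9 FPKM against 999 and 1058 FPKM (-1.84, adjusted p = 5.69e-09). Eif4h, a cofactor of these helicases, went the other way, at 79.1 and 76.4 FPKM against 13.6 and 8.14 FPKM (2.77, adjusted p = 1.2e-07). At 2-cell Eif4a2 (0.40, adjusted p = 0.033) and Eif4a1 (0.53, adjusted p = 0.000308) passed as higher, and Eif4h did not pass (-0.10). With quantile normalization the 2-cell change of Eif4a2 did not pass (0.28, adjusted p = 0.122) and that of Eif4a1 was -0.38.

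The course of each gene over the 8 groups was also compared with all genes whose group means spanned at least 1 on the log2 scale, 11723 in number. Pearson r over the 8 group means is a description, since all genes share the same libraries. Eif4enif1 was closest to Myo5b (r = 0.996), Mlf1ip (0.989) and Sik1 (0.974), and Zar1l to Nat9 (0.995), Mecr (0.993) and Med17 (0.992). Lsm14a was closest to E2f5 (0.99), Scyl2 (0.981) and Ctage5 (0.979). The genes closest to Ybx2 were Cdca7l (0.987), its paralog Csda (0.981) and Gpr137b-ps (0.98). Lsm14b was closest to Clptm1l (0.988), Slc25a31 (0.975) and Itfg1 (0.966), and Zar1 to Nat14 (0.982), Ell3 (0.979) and Tmem50a (0.978). For Pum2 the closest genes were Prkrir (0.986), Sspn (0.981) and Zfp770 (0.967), for Eif4e1b Dnaja4 (0.98), Bst2 (0.974) and AU015836 (0.971), and for Ddx6 Sfmbt1 (0.963), Ino80d (0.961) and Nfe2l2 (0.954). Within the 9, the most alike pairs were Zar1 with Lsm14b (r = 0.869), Lsm14a with Pum2 (0.82) and Ddx6 with Eif4enif1 (0.813). The least alike were Zar1l and Pum2 (-0.924). The 2 Zar genes had an r of 0.503 and the 2 Lsm14 genes one of -0.382.

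The Erk experiment has 1 library per group, so its differences have no replicate check and no test was made. Changes are log2 ratios of FPKM + 1, counted when past 2-fold, over 11404 genes. At GV, 1 of the 9 genes was past 2-fold higher in the library labelled Erk-/- and 0 were lower (18.7% of all genes were past 2-fold higher and 23.5% lower, together 42.2%). The exception was Pum2 at 24.4 FPKM against 9.40 FPKM in wild type. At MII 6 of the 9 were past 2-fold higher and 0 lower (30.7% and 8.08% of all genes, together 38.8%), with a median of 1.13 beside 0.26 for all genes. With median-of-ratios scaling 3 of the 9 were past 2-fold at MII.

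Eif4enif1 was at 215 FPKM against 39.1 FPKM in wild type (log2 change 2.43) and Eif4e1b at 545.5 against 140.2 FPKM (1.95). Zar1l was at 26.2 against 10.9 FPKM (1.20), Zar1 at 2144 against 981 FPKM (1.13) and Ybx2 at 144 against 69.2 FPKM (1.05). The last 3 lie close to the 2-fold line. Ddx6 was at 2.80 FPKM against 0.0151 FPKM in wild type. The deposited interval of that wild-type value reaches down to 0, so no fold is given. The 3 others stayed within 2-fold: Lsm14b at 531 against 387 FPKM, Lsm14a at 314 against 378 FPKM and Pum2 at 16.6 against 18.2 FPKM.

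From GV to MII in the wild-type pair of the Erk experiment 1 gene was past 2-fold higher and 6 lower (20.4% and 46.9% of all genes, together 67.3%), with a median of -2.75 beside -0.76 for all genes. In the pair labelled Erk-/- 1 was higher and 3 lower (23.9% and 33.4%, together 57.3%), with a median of -0.65 beside -0.09. In wild type Ybx2 went from 547 to 69.2 FPKM, Zar1 from 2228 to 981, Zar1l from 179 to 10.9, Eif4enif1 from 269 to 39.1, Eif4e1b from 1126 to 140.2 and Ddx6 from 9.70 to 0.0151 FPKM. Lsm14a went up, from 92.3 to 378 FPKM, Lsm14b stood at 390 and 387 FPKM, and Pum2 at 9.40 and 18.2 FPKM. In the pair labelled Erk-/- Ybx2 (535 to 144 FPKM), Zar1l (206 to 26.2) and Ddx6 (10.9 to 2.80) were past 2-fold lower and Lsm14a (111 to 314) past 2-fold higher.

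These wild-type courses did not match those of the Btg4 experiment. The sign of the GV to MII change was the same in both experiments for 4 of the 9 genes, and for 50.3% of 10466 genes measured in both, with a Pearson r of 0.178 across genes. Zar1 stood at 344 and 331 FPKM at GV in the Btg4 experiment and at 2228 FPKM in the Erk experiment, and at MII at 2414 and 2520 FPKM against 981 FPKM. Eif4enif1 stood at 25.0 and 20.2 FPKM against 269 FPKM at GV, and Eif4e1b at 149.5 and 147 FPKM against 1126 FPKM. Zar1l went down from GV to MII in both, to 33.9 and 27.6 FPKM in one and 10.9 FPKM in the other. The level of Btg4 itself went from 1450 and 1673 FPKM at GV to 415 and 406 FPKM at MII in one experiment, and from 216 to 2987 FPKM in the other. Whether the stage labels hold in both experiments could not be settled from the files, so every GV and MII value is given under its label, and the sources of the gap cannot be told apart.

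**Figure D4:**
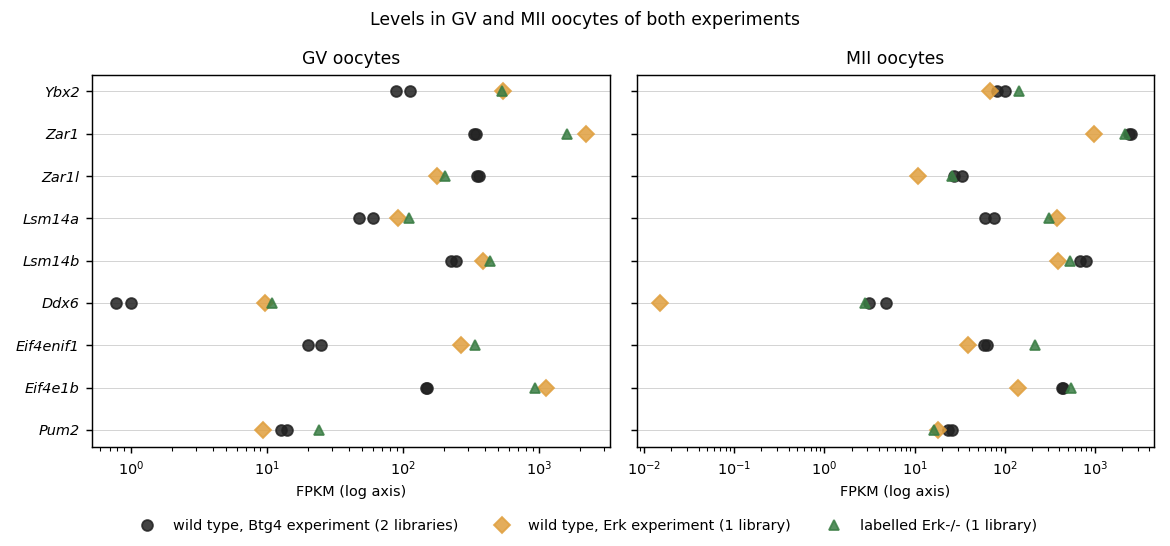
FPKM on log axes for the 9 genes in GV oocytes (left) and MII oocytes (right); each point is 1 library, black circles wild type of the Btg4 experiment, orange diamonds wild type of the Erk experiment and green triangles the label Erk-/-. At GV, Zar1 is at 2228 FPKM in wild type of the Erk experiment and at 344 and 331 FPKM in wild type of the Btg4 experiment.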

How the data were processed

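RNA-seq of 20 mouse oocyte and embryo samples was analysed from gene-level FPKM values as the authors deposited them, for 23813 loci per library on mm9. The submitters' processing notes list CASAVA 1.8, TopHat and Cufflinks, with no version of the last 2 and no annotation release, which are not given in the sources used. Values of loci with one symbol were added up (260 symbols had several), which left 23309 symbols; each of the 9 genes has 1 locus with status OK in all 20 libraries. The protocol purified mRNA without saying how; capture by the poly(A) tail, if used, makes FPKM depend on tail length too. Of 180 values of the 9 genes, 71 lie outside their own deposited interval, so no interval is quoted as an error. Depth was estimated from interval widths taken as 4 SDs, over genes of 20 to 500 fragments, and covers counting error only.

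Groups and replicate numbers come from the sample titles. Limma 3.58.1 (R 4.3.3) with a variance trend was fitted to log2(FPKM + 1) of all 16 libraries of the Btg4 experiment as 8 group means (8 residual degrees of freedom), for 12311 genes with a mean of at least 1 FPKM in at least 1 group, with two-sided p-values adjusted by Benjamini-Hochberg, 13 comparisons and a threshold of 0.05. Log2 changes understate those of low genes. The Erk experiment, over 11404 genes of at least 1 FPKM in at least 1 library, has no test. Lengths and 3′ sites came from GENCODE M21 (GRCm38), with 22972 of 23309 symbols matched by name (98.6%); for sites the principal protein-coding transcript was used, and mm9 and GRCm38 coordinates are not mixed. The 9 genes and all lists were chosen with earlier results of these data known, and the named genes are the paralogs of the 9 and, of each other list, up to 2 higher and 2 lower at MII. A paralog and the check of the targeted gene of the Erk experiment are not reported here. Alternatives were pseudocounts of 0.1 and 5, no filter, a filter at 5 FPKM, median-of-ratios scaling, quantile normalization, a correction for transcript length, a replicate block, a fit of only the groups compared, and leaving out each of the 16 libraries. No alternative was added later. Sperm markers summed to at most 13.2 FPKM in any library of the Btg4 experiment and 13.6 FPKM of the Erk experiment.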

Additional observations from a re-analysis of the deposited data

Results flagged for a closer look

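The results below are differences between the libraries labelled Btg4-/- and wild type in a change from 1 stage to the next, labelled minus wild type on the log2(FPKM + 1) scale, that passed limma's test of the difference itself. From GV to MII they were 4.49 for Zar1l, 2.41 for Ybx2 and 0.93 for Eif4e1b. Lower in the labelled libraries in that step were Lsm14a (-1.90), Ddx6 (-1.60), Pum2 (-1.501), Eif4enif1 (-1.12) and Lsm14b (-1.02). The Ddx6 difference did not pass with the length correction (-0.97, adjusted p = 0.0608). From MII to zygote the differences were 0.79 for Lsm14b, -0.82 for Ybx2 and -1.48 for Zar1l. Without a filter the Ybx2 and Zar1l differences of this step did not pass (adjusted p = 0.0691 and 0.0561). The Ybx2 difference was also lost with the length correction (-0.72, adjusted p = 0.0513) and the Zar1l difference under quantile normalization (-1.07, adjusted p = 0.133), and each of the 3 was lost when any of several single libraries was left out. From zygote to 2-cell they were 3.94 for Zar1, 2.30 for Lsm14b, 1.83 for Lsm14a, 1.67 for Eif4enif1, 1.16 for Eif4e1b and 1.04 for Pum2, with Ybx2 at -1.44. The Eif4e1b difference in the last step was 0.42 with quantile normalization and did not pass (adjusted p = 0.193).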

How the results depend on the processing

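When 1 library was left out, 1336 of the values of single genes kept their direction and side of the threshold. Another 67 lost a call and 5 changed sign. Under the other settings 745 kept both, 39 lost a call and 8 changed sign. Most libraries left out lay outside the groups compared, where the log2 change cannot move and only the spread can. A value that had not passed cannot lose a call. Stage steps and their genotype differences that had not passed were not counted. The totals are therefore no measure of stability. The changes of sign were at GV Zar1l with the length correction (-0.012) and Lsm14a with median-of-ratios scaling (0.24) or quantile normalization (0.10). Leaving out 1 library, Lsm14a at GV ranged from -0.161 to 0.155 and Pum2 at GV from -0.052 to 0.098. With quantile normalization Eif4e1b changed sign at MII (-0.10) and in the zygote (-0.14), Zar1 in the zygote (-0.17) and Lsm14a at 2-cell (-0.72), and Eif4e1b in the zygote was -0.058 with the length correction. Lsm14a at 2-cell ranged from -0.052 to 0.164 when 1 library was left out. The cause of these changes was not tested.

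Counts of the 9 genes past the threshold moved by more than 1.5 times as follows. At GV the count of 1 went to 0 with median-of-ratios scaling and to 0 with only the groups compared. Wild-type MII to zygote went from 6 to 2 with only the groups compared, a fit of 4 libraries. The same step in the labelled libraries went from 2 to 4 under median-of-ratios scaling, 5 under quantile normalization, 5 with the length correction and 1 with only the groups compared. The difference between genotypes in that step went from 3 to 1 with no filter. The count past 2-fold at MII in the Erk experiment went from 6 to 3 with median-of-ratios scaling. Leaving out 1 library gave 0 to 1 genes at GV, 6 to 8 at MII, 6 to 7 in the zygote and 5 to 7 at 2-cell. It gave 7 to 8, 4 to 6 and 7 to 8 in the 3 wild-type steps, 5 to 7, 1 to 4 and 4 to 4 in the labelled ones, and 7 to 9, 0 to 3 and 7 to 8 for the differences between genotypes.

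The labels do not say that a replicate number marks a shared animal or day. Same-numbered libraries deviated together weakly (r of -0.01 to 0.12), which cannot settle whether they share one. With the replicate block, 1, 8, 7 and 7 of the 9 genes passed between genotypes at the 4 stages, 7, 6 and 8 in the wild-type steps, and 7, 3 and 4 in the labelled ones, where the second was 2 without it. Over all genes the block moved the counts from 973 to 1076 at GV and from 6455 to 6546 at MII. Depth limits Ddx6 most. Its wild-type GV values in the Btg4 experiment rest on an estimated 26.7 and 15.99 fragments. Its wild-type MII value in the Erk experiment, 0.0151 FPKM, has an interval that reaches 0 and allows no such estimate.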
